A study of Arabidopsis thaliana with 32 samples.

Results

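The loci described here lie outside the intervals taken as pericentromeric on the 5 nuclear chromosomes of Arabidopsis thaliana and had a higher signal in sahh1 than in wild-type seedlings at day 1, with little or no rise at later ages. A locus was chosen when its mean log2 intensity was at least 1.5 higher in sahh1 at day 1, when all 4 sahh1 arrays of that age lay above all 4 wild-type arrays, and when the difference was under 0.5 at days 4, 7 and 10. The rule left out the runs AT1G35500 to AT1G44100, AT2G05500 to AT2G14500, AT3G29500 to AT3G44250, AT4G04000 to AT4G08800 and AT5G28000 to AT5G36500. It chose 43 of the 26078 nuclear loci outside those runs and of 30385 loci on the arrays. The values that chose the loci are the genotype differences of all 4 ages, so these differences are given as descriptions, and no test of them is read as a result.

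Whole seedlings were compared in 8 groups of 4 single-colour arrays: sahh1 and Columbia wild type aged 1, 4, 7 and 10 days. The sahh1 plants are a mutant deficient in S-adenosylhomocysteine hydrolase 1, and the wild type carries no such lesion; the labels name neither the allele nor the growth conditions, and no treatment. The comparison asks how transcripts of the mutant differ from wild type as seedlings develop. Arrays 1 and 2 of every group resembled each other more than they resembled arrays 3 and 4, and what the pairs stand for is not labelled. Each pair was therefore averaged into 1 sample for the tests, with n = 2 samples per group, a number that limits how precise any value can be.

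S-adenosylhomocysteine is released each time a methyl group is passed from S-adenosylmethionine to DNA, histones or other acceptors, and it inhibits the methyltransferases that release it. The hydrolase removes it and so keeps methylation going. In plants, DNA methylation and histone H3 lysine 9 methylation hold transposable elements and their relics silent, and such sequences crowd around the centromeres and thin out along the chromosome arms. Loss of methylation at such a locus is known to let its transcription resume, which is called derepression. Methylation itself was not measured here.

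The transcript of SAHH1 (AT4G13940, with the symbol HOG1 in RefSeq) was lower on every sahh1 array than on any wild-type array at each of the 4 ages. Its mean intensity at day 1 was 19568 in sahh1 and 47001 in wild type, a log2 difference of -1.26 ± 0.23 (SE; limma adjusted p = 0.0117). The log2 difference was -1.53 at day 4 (limma adjusted p = 0.0144), and it was not called at day 7 (-0.48, adjusted p = 0.723) or day 10 (-0.77, adjusted p = 0.276). Array medians over all loci were alike within an age and differed between ages, with the lowest at day 4 (449 to 493) and the highest at day 7 (1793 to 1945). Levels of different ages were therefore set side by side as rank percentiles within an array, where the dimmest locus is near 0 and the brightest at 100.

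Of the 43 loci 37 are pseudogenes in the reference annotation, 3 are protein-coding and 3 have no entry there. Pseudogenes thus make up 92.5% of the 40 annotated loci, against 3.97% of the annotated loci outside the excluded runs (1027 of 25883). The reference does not separate transposable element genes, which may be counted among its pseudogenes, and it gives none of the 43 loci a name beyond the locus code. The 94 pericentromeric loci that met the same conditions on signal were pseudogenes in 90 cases. Of all 184 loci outside the excluded runs that met the day 1 conditions, whatever their later differences, 141 were pseudogenes (78.3% of 180 annotated). A high share of pseudogenes is thus not particular to the 43. Among the 17 loci outside the excluded runs that were at least 1.5 higher at all 4 ages with separated arrays, 4 were pseudogenes and 13 protein-coding.

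The word arm fits these loci only loosely. Counted in measured loci, the median distance to the nearest edge of an excluded run was 142 for the 43 loci and 1506 for all loci outside the runs. Of the 43, 12 lay within 50 loci of an edge and 25 (58.1%) within 200, where 7.67% of all loci outside the runs lie. Pseudogenes outside the runs as a class lie close to them as well: 444 of 1027 (43.2%) were within 200 loci, as were 24 of the 37 pseudogenes chosen. By chromosome there were 7, 10, 6, 8 and 12 loci on chromosomes 1 to 5. Clusters just outside the runs include AT4G03745, AT4G03775, AT4G03880 and AT4G03920 on chromosome 4, and AT2G14630, AT2G14730 and AT2G14950 on chromosome 2. Loci far from any run include AT1G13660 at 2150 loci, AT3G11970 at 1974 and AT5G07685 at 1968.

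**Figure D1:**
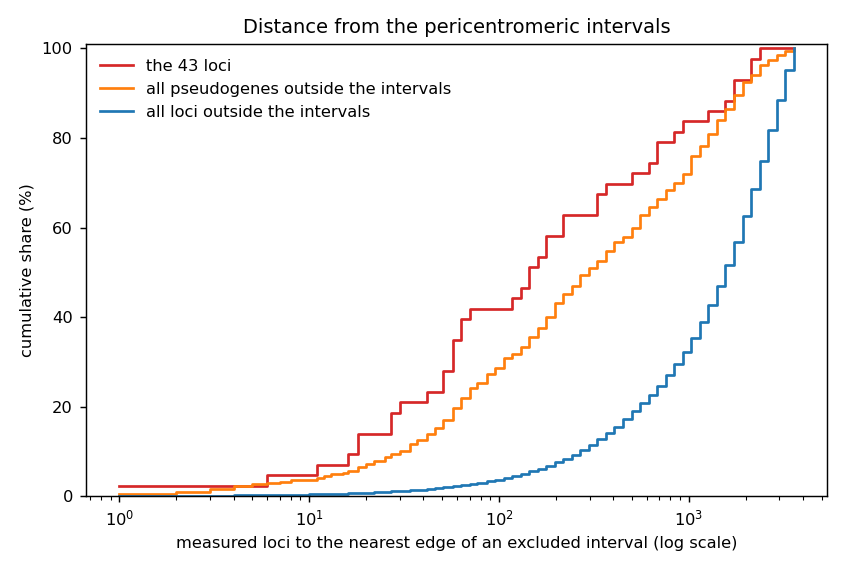
Cumulative share (in %) of loci by their distance from the nearest excluded run, counted in measured loci on a log axis, for the 43 loci, all pseudogenes outside the runs and all loci outside the runs. At 200 loci the curves stand at 58.1% for the 43 loci, 43.2% for the pseudogenes and 7.67% for all loci.

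At day 1 the difference between sahh1 and wild type had a median of 2.29 on the log2 scale over the 43 loci and ran from 1.51 to 4.22. It was at least 4-fold at 28 loci and at least 8-fold at 7. Over all loci the median difference was -0.02. The limma fit called 41 of the 43 higher at day 1 (adjusted p under 0.05) and 2.16% of all loci, but the rule chose the loci on this contrast, so the count is fixed by the choice and is no test of it. The 2 loci that were not called, AT5G36650 and AT4G22480, had wide standard errors (0.47 and 1.02), since the fit shares 1 spread over all groups and both loci varied between samples at other ages.

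The pseudogene locus AT3G45446 had the largest difference. Its intensity at day 1 was 375, 450, 446 and 603 on the sahh1 arrays and 20.8, 19.8, 28.8 and 32.2 on the wild-type arrays, a log2 difference of 4.22 ± 0.25. The lowest sahh1 array was more than 10 times as bright as any wild-type array. At day 4 it read 53.1, 52.8, 31.0 and 40.3 in sahh1 and 31.6, 36.4, 39.99 and 38.8 in wild type, and the groups overlapped. They overlapped too at day 7 (44.4 to 64.7 in sahh1, 61.8 to 71.8 in wild type) and at day 10 (24.98 to 55.9 in sahh1, 27.99 to 54.8 in wild type).

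AT5G19015, a pseudogene locus of chromosome 5, read 465, 400, 611 and 451 in sahh1 and 43.1, 25.1, 45.1 and 16.9 in wild type at day 1 (difference 3.98 ± 0.22). Its wild-type arrays were dim and uneven, while the sahh1 arrays were all bright. At day 4 a single sahh1 array stood at 110 and the other 3 between 32.4 and 52.2, among wild-type values of 31.1 to 55.5. AT2G15550, a pseudogene locus of chromosome 2, read 170, 163, 282 and 272 in sahh1 and 17.5, 16.2, 24.2 and 13.8 in wild type (3.61 ± 0.24). Its sahh1 and wild-type ranges overlapped at each later age, with all values between 18.7 and 62.0.

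Next in size was the pseudogene locus AT2G16000, with 161, 165, 250 and 281 in sahh1 and 29.6, 17.8, 14.5 and 14.3 in wild type (3.51 ± 0.38). AT2G18610, which is not in the reference, read 130, 148, 212 and 171 in sahh1 and 11.6, 9.6, 22.4 and 17.0 in wild type (3.50 ± 0.26). AT5G42645, a pseudogene locus, read 122, 124, 186 and 145 in sahh1 and 10.1, 11.8, 18.6 and 15.7 in wild type (3.38 ± 0.30). In these 3 loci as in the previous ones the wild type was near the bottom of the array's range. The next 4 by size were the pseudogene loci AT5G36905 (3.03 ± 0.25), AT5G07685 (2.84 ± 0.22), AT4G03775 (2.78 ± 0.34) and AT3G15602 (2.76 ± 0.26).

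Just inside the day 1 minimum were AT1G49070 (1.51), AT5G26350 (1.53), AT1G63560 (1.55), AT4G22480 (1.55) and AT2G04290 (1.57). Just outside it, with all other conditions met, were AT2G14940 (1.46), BGLU27 (AT3G60120, 1.45), AT2G25150 (1.45), AT4G09210 (1.40) and AT5G17470 (1.38). Of these 5 only AT2G14940 is a pseudogene.

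**Figure D2:**
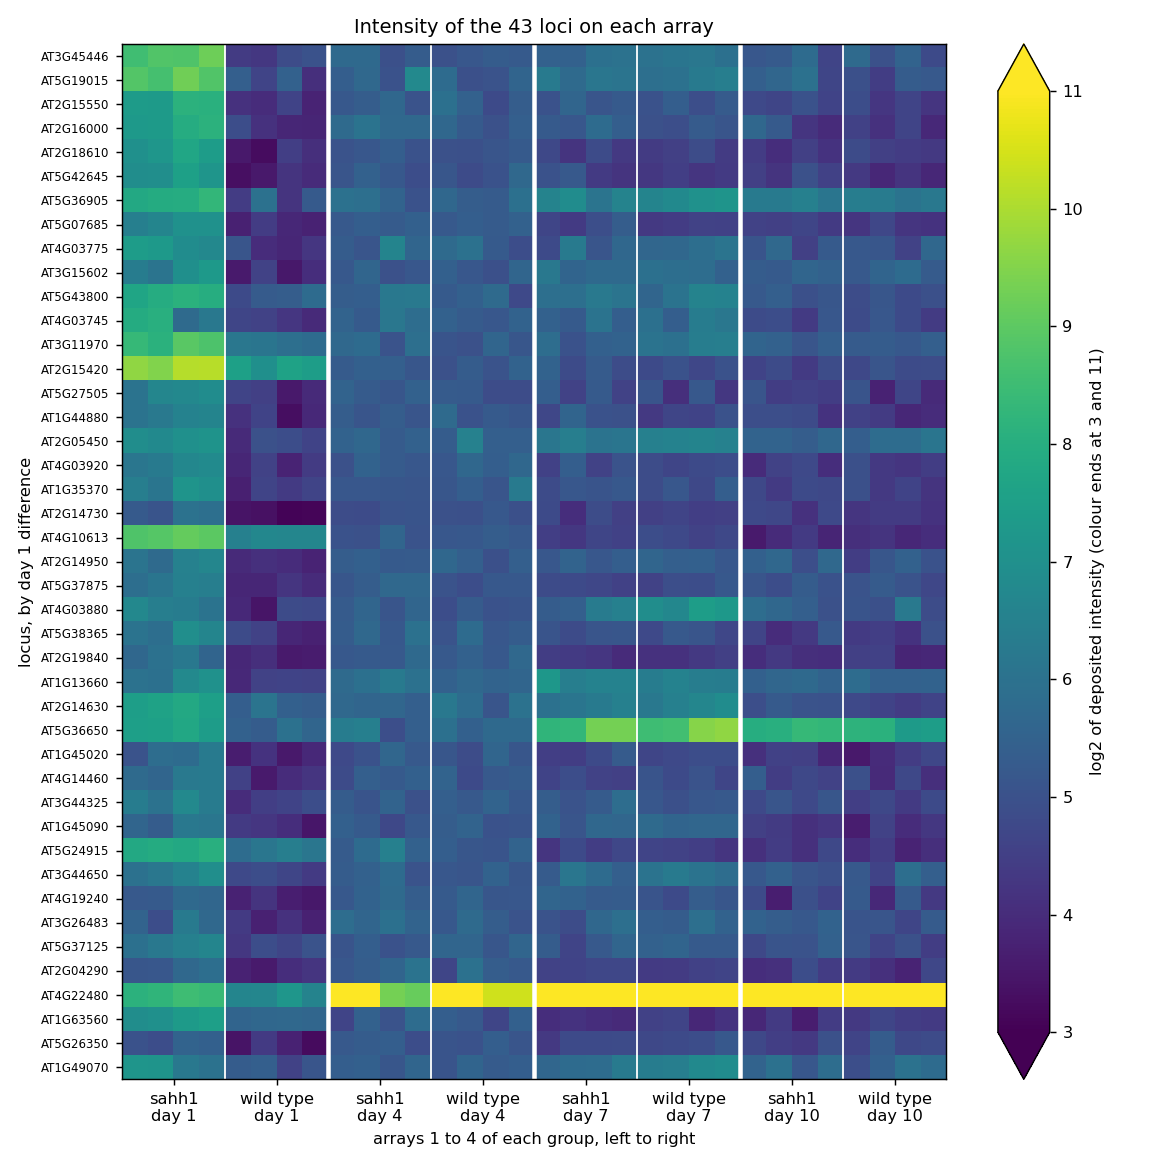
Log2 of the deposited intensity for each of the 43 loci (rows, largest day 1 difference on top) on each of the 32 arrays (columns, grouped by age with sahh1 left of wild type). The sahh1 arrays of day 1 stand out from the wild-type arrays beside them in every row, and AT4G22480 is the row that is bright from day 4 on in both genotypes.

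As means of 4 arrays, all 43 loci ranked in sahh1 above the dimmest 25% and below the middle of the arrays at day 1. On single sahh1 arrays, 2 loci were among the dimmest 25% on array 2, and AT2G15420 was just above the median of arrays 3 and 4. The median locus was at percentile 33.7 in sahh1 and 17.5 in wild type. The sahh1 values ran from 26.9 to 49.1 and those of wild type from 1.63 to 36.9. In wild type 32 of the 43 loci were among the dimmest 25% of loci, and in sahh1 none was. Where a wild-type level is at the foot of the scale, the size of a difference depends on the background of the array. The gain in rank was 5.65 to 27.1 points, with a median of 14.97.

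At the later ages both genotypes were mostly dim. The median percentile was 17.2 in sahh1 and 15.2 in wild type at day 4, 18.8 in sahh1 and 15.9 in wild type at day 7, and 17.7 in sahh1 and 15.6 in wild type at day 10. At each of these ages 35 loci were among the dimmest 25% in both genotypes, and 30 were so at all of them. For 41 of the 43 loci the rank in sahh1 was higher at day 1 than at any later age. In wild type the rank was highest at day 1 for 17. The rule asks for a rise in sahh1 over wild type at day 1 only, so nothing is read from these counts.

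**Figure D3:**
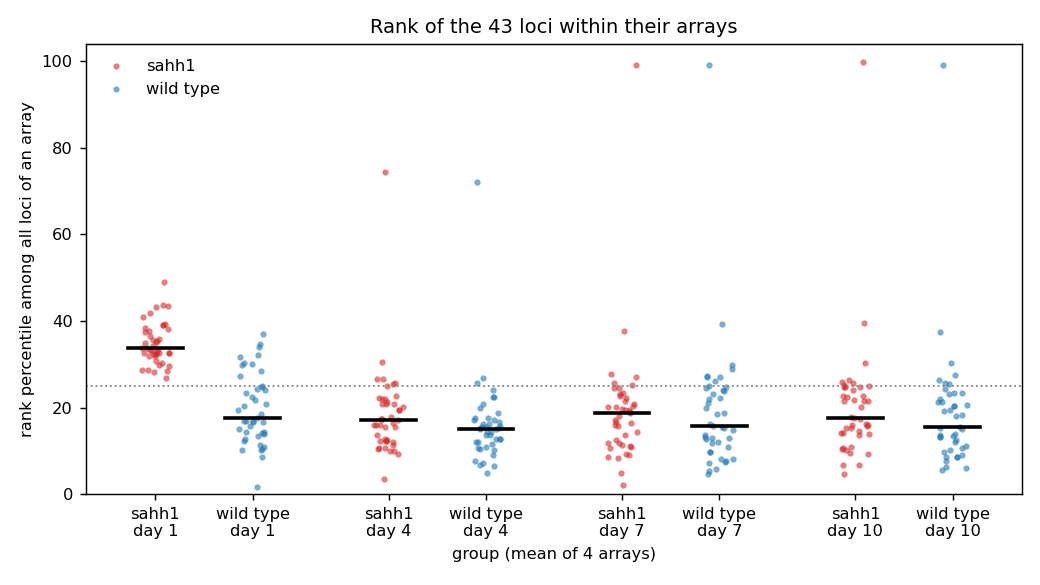
Rank percentile among all loci of an array (0 dimmest, 100 brightest; mean of 4 arrays) of each of the 43 loci in the 8 groups, with black bars at the medians and a dotted line at 25. The sahh1 points of day 1, with a median of 33.7, lie above the dotted line, and the other 7 groups have medians of 15.2 to 18.8; the points near the top at days 4 to 10 are AT4G22480.

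Median differences at days 4, 7 and 10 were 0.06, -0.09 and 0.13 on the log2 scale. Individual loci ran from -0.33 to 0.49 at day 4, from -1.20 to 0.42 at day 7 and from -0.37 to 0.49 at day 10. All 4 sahh1 arrays lay above all 4 wild-type arrays at AT1G13660 and AT2G16000 at day 4 (2 of 43, against 6.38% of all loci), at none of the 43 at day 7 (against 7.51%) and at AT2G14630 at day 10 (against 6.01%). The rule limits these differences, so nothing is read from the counts. At 11 loci the largest later difference was 0.4 or more, close to the limit. AT1G44880 (0.49 at day 10), AT5G42645 (0.49 at day 10), AT5G24915 (0.49 at day 4), AT5G43800 (0.48 at day 4) and AT2G16000 (0.48 at day 10) came nearest. Just over it, and so not chosen, were the pseudogene loci AT1G45030 (0.51 at day 7), AT4G03530 (0.51 at day 10), AT5G44415 (0.51 at day 4), AT5G27180 (0.51 at day 10) and AT4G28970 (0.51 at day 4).

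**Figure D4:**
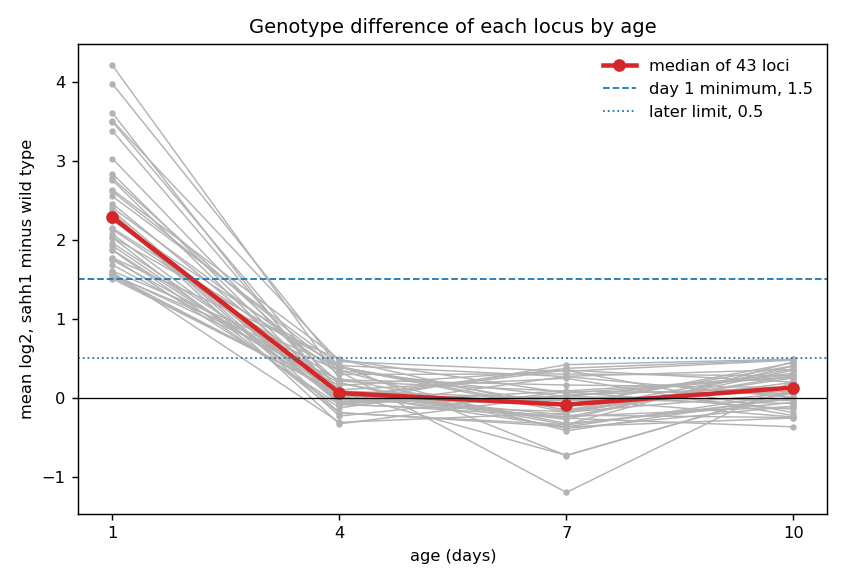
Mean log2 difference, sahh1 minus wild type (vertical axis), at days 1, 4, 7 and 10 for each of the 43 loci (grey) and their median (red), with the rule's day 1 minimum as a dashed and its later limit as a dotted line. The median is 2.29 at day 1 and 0.06, -0.09 and 0.13 at the later ages; the shape follows from the rule.

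Of 184 loci outside the excluded runs that met the day 1 conditions (0.706% of all such loci), 43 (23.4%) stayed under 0.5 at every later age, and of 335 pericentromeric loci that met them, 94 did (28.1%). Among the other 141 the limit was reached at day 4 by 73, at day 7 by 97 and at day 10 by 124, and by 58 at all these ages. Day 10 alone kept 29 loci out, day 4 alone 9 and day 7 alone 8. The median differences of all 184 were 2.58, 0.35, 0.55 and 0.89 at days 1, 4, 7 and 10.

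**Figure D5:**
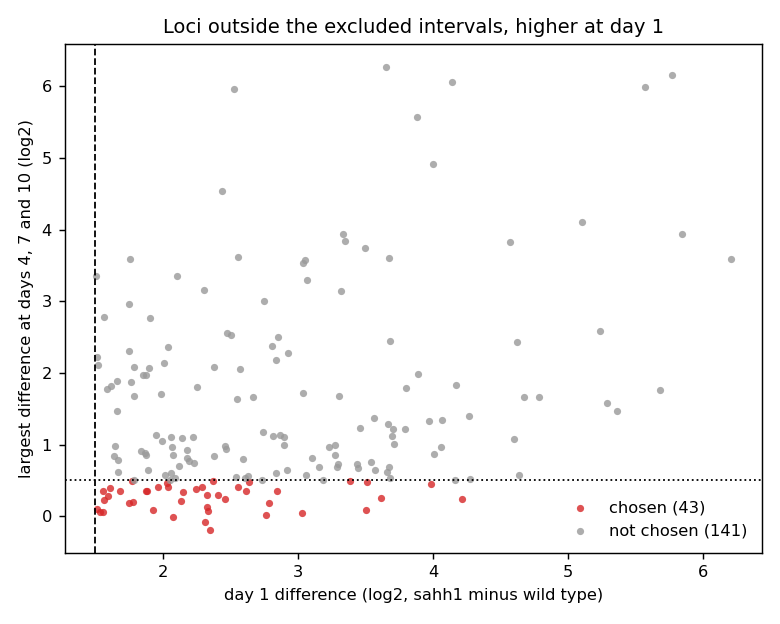
Day 1 difference (horizontal) against the largest difference at days 4, 7 and 10 (vertical), both log2 of sahh1 over wild type, for the 184 loci outside the excluded runs that met the day 1 conditions. The 43 chosen loci (red) lie under the dotted line at 0.5, and the 141 others (grey) lie at or above it; with a limit of 1.0 the rule would choose 94.

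How many loci count as raised only at day 1 depended on how the ages were scaled. After quantile normalization over all 32 arrays the rule chose 28 loci, of which 20 were among the 43. The median day 1 difference of the 43 was then 1.85, and 13 were under the day 1 minimum of 1.5. At day 4 their median was 0.14 and 12 reached 0.5, with a largest value of 1.13, whereas at days 7 and 10 none did. The day 4 values as deposited are the most compressed at the dim end, with a 5th percentile of all loci at a log2 level of 4.96 to 5.08 per array, against 3.48 to 3.53 at day 1. In rank, sahh1 was at least 5 points above wild type at 16 loci at day 4, at 3 at day 7 and at 6 at day 10. In all 43 loci the quantile-normalized difference was larger at day 1 than at every later age, and in rank this held for 40.

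Array pairs mattered as well. Without arrays 1 and 2 of every group the rule chose 43 loci, 26 of them shared, and without arrays 3 and 4 it chose 71, with 22 shared. Under both of these settings, quantile normalization and cyclic loess alike, 12 of the 43 loci were chosen: AT2G15550, AT2G18610, AT5G36905, AT3G15602, AT2G15420, AT2G05450, AT4G03920, AT1G35370, AT2G14730, AT4G10613, AT2G19840 and AT4G14460. These 12 were singled out after their values were seen.

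The 3 protein-coding loci differed in level. AT2G15420 was the brightest of the 43 at day 1, with 818, 713, 1113 and 1137 in sahh1 and 188, 127, 194 and 174 in wild type (2.46 ± 0.18). It was dim at later ages in both genotypes, between 20.3 and 45.9 on every array. AT4G10613 read 450, 475, 552 and 512 in sahh1 and 89.7, 105, 102 and 103 in wild type (2.31 ± 0.17), and between 11.99 and 48.6 from day 4 on. In both loci the wild type itself ranked higher at day 1 (percentiles 36.9 and 34.1) than later. AT4G19240 was dim throughout, with 37.9, 38.4, 53.4 and 50.1 in sahh1 and 13.6, 18.3, 12.8 and 11.6 in wild type (1.68 ± 0.23).

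By wild-type level at day 1 the 5 brightest were AT2G15420, AT4G22480, AT4G10613, AT5G24915 and AT3G11970. AT5G24915, a pseudogene locus, read 227, 245, 226 and 266 in sahh1 and 57.4, 71.2, 84.9 and 70.1 in wild type (1.77 ± 0.18). AT3G11970, a pseudogene locus, read 325, 279, 494 and 438 in sahh1 and 71.4, 68.4, 60.2 and 56.0 in wild type (2.56 ± 0.23). In wild type at day 1 the 5 loci ranked at percentiles 31.6 to 36.9, with AT1G63560 next at 30.3.

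AT4G22480 went against the label. It is not in the reference, read 282, 302, 369 and 340 in sahh1 and 99.6, 102, 148 and 96.5 in wild type at day 1, and was among the brightest loci of the arrays later. At day 7 it read 39645 to 61065 in sahh1 and 40521 to 59851 in wild type, at percentile 99.2 in sahh1 and 99.1 in wild type. At day 4 its sahh1 arrays read 14231, 12151, 640 and 570 and its wild-type arrays 3578, 3588, 1375 and 1364. The first sahh1 sample lay above and the second below all wild-type arrays. The difference of 0.35 that keeps the locus within the limit is the mean of the 2. Its day 1 difference of 1.55 carries the standard error of 1.02 given above. The sahh1 samples of day 4 were unlike beyond this locus. Over the 15192 loci with a mean log2 level above the median, their arrays differed by 0.710 to 0.719 (SD of the log2 difference). Between samples of any other group the value was at most 0.334. A single sahh1 sample reached the later limit over the wild-type mean at 13 of the chosen loci at day 4. This was so at 3 loci at day 7 and at 6 at day 10. Most of the 43 loci are dimmer than the loci of that comparison. At the 43 the median gap between the 2 sahh1 samples was 0.23 on the log2 scale at day 4. It was 0.50 at day 1, 0.23 at day 7 and 0.25 at day 10. The gap was over 1 at 2 loci at day 4, as it was at days 1 and 7.

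AT5G36650, a pseudogene locus next to the excluded run of chromosome 5, was the other locus with a substantial later signal. It read 181, 187, 222 and 172 in sahh1 and 44.6, 40.1, 63.9 and 49.0 in wild type at day 1 (1.96 ± 0.47). At day 7 it read 300, 315, 643 and 647 in sahh1 and 363, 382, 747 and 816 in wild type, and the groups overlapped. Its rank at day 7 was percentile 37.8 in sahh1 and 39.4 in wild type, so that the wild type then stood about where sahh1 stood at day 1 (37.5).

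Change with age was tested on the mean of both genotypes, which the rule does not use, after quantile normalization. Between day 7 and day 4, 8 of the 43 loci were called (limma adjusted p under 0.05), 4 higher and 4 lower at day 7, where 17.4% of all loci were higher and 17.5% lower. The 4 higher loci were AT4G22480 (3.15 ± 0.69, adjusted p = 0.0063), AT5G36650 (2.21 ± 0.47, 0.00536), AT4G03880 (1.18 ± 0.26, 0.00698) and AT1G49070 (0.72 ± 0.22, 0.0306). The 4 lower loci were AT5G24915 (-0.86 ± 0.17, 0.00416), AT2G19840 (-0.73 ± 0.16, 0.00572), AT2G04290 (-0.69 ± 0.24, 0.0452) and AT1G63560 (-0.54 ± 0.15, 0.0187). Each of the 8 moved in the same direction in both genotypes, but not always equally. AT5G24915 went from 5.78 to 4.42 in sahh1 and from 4.71 to 4.35 in wild type. AT4G03880 went from 4.94 to 5.35 in sahh1 and from 4.29 to 6.23 in wild type. AT2G19840 went from 4.86 to 4.20 in sahh1 and from 4.98 to 4.19 in wild type. The median change of the 43 was 0.00, against -0.02 over all loci.

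Between day 10 and day 7 limma called 0 of the 43, where 5.20% of all loci were higher and 5.23% lower at day 10. At an unadjusted p under 0.05 there were 3 of the 43. The share of all loci at that threshold is not given here, so nothing is read from that count. After cyclic loess normalization 4 of the 43 were called, beside 4441 of all 30385 loci. The median change of the 43 was 0.06, and single loci ran from -0.72 at AT2G14630 to 0.58 at AT5G37875. Array medians and the dim end of the deposited values differed by age, and their part in these changes cannot be told apart from that of age. The count of 8 at day 7 against day 4 stood beside 10629 called of all 30385 loci. It was 13 without sahh1 day 4 sample 1 (15875 of all loci) and 5 without wild-type day 7 sample 2 (7833). With array weights it was 3 (5679).

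The sahh1 samples of day 1 were not equal. At 39 of the 43 loci arrays 3 and 4 averaged higher than arrays 1 and 2, with a median log2 difference of -0.46 for the first pair minus the second. Of 7398 nuclear loci between the 25th and 50th percentile in sahh1 at day 1, nearer to the 43 in level, 73.2% leaned that way, with a median of -0.21. Over all loci the share was 62.2%, and it was 79.4% of the 141 loci outside the runs that met the day 1 conditions and were not chosen. For the pericentromeric loci that met them the share was 47.2%. In wild type the second pair was higher at 20 of the 43. SAHH1 intensity was 17886 and 19617 on sahh1 arrays 1 and 2 and 20778 and 19991 on arrays 3 and 4 at this age, and its part in the result was not tested.

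The 4 loci that leaned the other way were AT4G03745, AT1G49070, AT4G03775 and AT4G03880, and 3 of them lie near one another on chromosome 4. AT4G03745 read 243, 266, 54.4 and 73.8 in sahh1 and 25.6, 23.8, 19.4 and 15.5 in wild type (2.62 ± 0.50). Its first sahh1 sample was 2.005 higher than the second on the log2 scale, the widest gap of the 43 at day 1. AT1G49070 read 143, 140, 74.1 and 64.1 in sahh1 and 40.5, 43.2, 24.1 and 34.3 in wild type (1.51 ± 0.34). AT4G03920, from the same stretch of chromosome 4, leaned with the majority (-0.55).

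Some of the loci adjoined others that were raised. Of the 43, 9 (20.9%) had an immediate neighbour among the measured loci that met the day 1 conditions, against 1.39% of all loci outside the runs, and none adjoined another of the 43. At 8 of these 9 the neighbour had the larger day 1 difference, with 2.56 to 5.57 over the 9 neighbours. AT2G19840 (2.08) adjoins the protein-coding locus AT2G19850, whose differences were 5.57, 5.53, 5.51 and 5.99 at days 1, 4, 7 and 10. AT3G15602 (2.76) adjoins the pseudogene AT3G15600 (3.97, 0.19, 0.33 and 1.34 at the same ages). AT4G03920 (2.33) adjoins the pseudogene AT4G03923 (4.60, 0.68, 1.07 and 1.05). Over the 9 neighbours the median differences were 3.97, 0.68, 1.06 and 1.05 at days 1, 4, 7 and 10. Probe sequences were not used here, so signal from a near-identical copy or an overlapping transcript cannot be told apart from the locus itself.

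A lower level in sahh1 is not barred by the rule, and at day 7 the difference was under -0.5 at 3 loci. AT4G03880, a pseudogene locus, read 107, 86.5, 81.8 and 66.0 in sahh1 and 15.1, 10.98, 28.2 and 27.3 in wild type at day 1 (2.15 ± 0.40). At day 7 it read 40.1, 42.6, 80.7 and 89.7 in sahh1 and 121, 105, 177 and 155 in wild type (-1.20 ± 0.40), with every sahh1 array below every wild-type array. The other 2 were AT3G11970 (-0.73 ± 0.23) and AT1G49070 (-0.73 ± 0.34).

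Most listed genes that act in silencing or against it were not called at day 1. The list holds 20 genes for DNA methylation, the upkeep of silencing or the removal of its marks. Of these, 0 were called higher and 2 lower (limma adjusted p under 0.05), where 2.16% of all loci were called higher and 0.296% lower. The 2 were SAHH1 itself and IBM1 (AT3G07610), a histone H3 lysine 9 demethylase, at -1.19 ± 0.19 (adjusted p = 0.00408). The list had a median difference of -0.01, against -0.02 over all loci, and 8 of the 20 were above 0. Its summed intensity, SAHH1 included, was 164858 to 180977 on sahh1 arrays and 212803 to 221387 on wild-type arrays. VIM1 (AT1G57820, -0.26 ± 0.13), VIM2 (AT1G66050, -0.39 ± 0.23) and VIM3 (AT5G39550, -0.36 ± 0.24) were lower but not called. The maintenance DNA methyltransferase gene MET1 (AT5G49160) stood at -0.11 ± 0.17, the CHG methyltransferase gene CMT3 (AT1G69770) at -0.11 ± 0.14 and the chromatin remodeller gene DDM1 (AT5G66750, listed as CHR1) at 0.13 ± 0.27. Of 16 genes for RNA-directed DNA methylation limma called 0, also at an unadjusted p under 0.05, with a median of -0.05.

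Seed and seedling markers of day 1 are given because seedlings of this age still hold seed material. Of 18 seed storage and maturation genes limma called 2 lower in sahh1 and 0 higher. Of all loci it called 0.296% lower and 2.16% higher at this age. The genes called were the storage protein genes CRU2 (AT1G03880, -1.73 ± 0.26, limma adjusted p = 0.00246) and SESA3 (AT4G27160, -0.93 ± 0.21, 0.0488). The list had 7 genes at an unadjusted p under 0.05 and a median of 0.03. The median joins differences of both signs. All 8 storage protein genes of the list had a difference below 0 (-1.73 to -0.22), and 9 of its 10 other genes, which encode oleosins, maturation proteins and regulators among others, had one above 0 (up to 0.52). This split was made after the values were seen. The summed intensity of the list was 178335 to 199625 on sahh1 arrays and 181847 to 197232 on wild-type arrays. Of 8 photosynthesis genes limma called 0, beside the same shares of all loci, with 2 at an unadjusted p under 0.05. No share of all loci at the unadjusted threshold is given, so the 7 and the 2 are read for nothing. Summed intensity of the 8 was 128970 to 135569 in sahh1 and 135598 to 148522 in wild type, a sum led by the brightest genes. The list median was -0.06. LHCA1 (AT3G54890, 0.62 ± 0.16) and LHCB2.1 (AT2G05100, 0.47 ± 0.30) were above 0 and the rest below. The part of seed material in the day 1 differences was not tested. In whole seedlings, fewer cells that transcribe a locus and less RNA per cell cannot be told apart.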

How the data were processed

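Total RNA of whole seedlings was hybridised to 32 single-colour (Cy3) NimbleGen arrays. Per the submitters' processing notes the authors normalized with RMA, version not given, and deposited linear intensity values, 1 for each locus on each array. The genome build is not given in the sources used here, so loci are placed by locus code. Biotypes and symbols come from RefSeq (TAIR10.1), which holds 29996 of the 30385 loci. Log2 was taken, with no filter on level. Depth has no meaning for arrays; the number of samples limits precision.

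The loci, lists and tests were chosen with earlier results of these data known. Pairs of arrays were averaged into 16 samples and fitted with limma 3.58.1 in R 4.3.3 (1 mean per group, 8 residual degrees of freedom, Benjamini-Hochberg over all loci, threshold 0.05). Genotype contrasts used deposited values. Age contrasts used quantile normalization over 32 arrays and the mean of both genotypes. The labels do not say that arrays come from separate cultures, so p-values measure spread between these samples. Genes named are the 10 loci with the largest and the 5 with the smallest day 1 difference, the 5 brightest in wild type at day 1, those nearest a limit on either side, and list genes that were called. None of the loci has a symbol or adjoins another, which the rule would also have named. Others were named after their values were seen. The rule and the fit were tested on simulated data. Alternatives were other normalizations, limits, filters, weights, priors, single arrays, left-out arrays and samples, and a replicate block.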

Additional observations from a re-analysis of the deposited data

Results flagged for a closer look

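For the 43 loci, their median and SAHH1, all 8 groups of 4 arrays (360 in all) were examined for an array far from the other 3, by Dixon's ratio of the gap to the range. The critical value at the 95% level is for 4 independent arrays, and these arrays came in close pairs, so the count is not set against chance. The ratio passed it in 18 groups (5.0%). In sahh1 these were AT4G10613 (0.898) and AT2G19840 (0.88) at day 4, AT1G13660 (0.861) and AT5G26350 (0.932) at day 7, and AT5G27505 (0.831), AT1G44880 (0.869), AT1G35370 (0.836) and AT2G14730 (0.862) at day 10. In wild type they were AT1G13660 (0.945), AT2G14630 (0.86) and AT4G22480 (0.878) at day 1, AT2G05450 (0.931), AT3G44650 (0.861) and AT5G37125 (0.998) at day 4, AT2G14730 (0.882) at day 7, and AT5G07685 (0.865), AT4G03880 (0.837) and AT1G13660 (0.871) at day 10.

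At 4 of the loci every sahh1 array was above every wild-type array at day 1 and below every wild-type array at day 7. The log2 differences at day 7 were -1.20 at AT4G03880, -0.73 at AT3G11970, -0.73 at AT1G49070 and -0.37 at AT2G05450. The change of the difference between these ages was not tested, because the rule used both.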

How the results depend on the processing

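The number of loci chosen was 77 and 28 at day 1 minima of 1.0 and 2.0, 19 and 94 at later limits of 0.25 and 1.0, and 28 once all 32 arrays were quantile normalized. It was 21 when rank differences under 5 points at days 4, 7 and 10 were asked for as well, which was chosen after seeing the data. Leaving out single day 1 arrays or 1 array pair of every group gave 39 to 71. Their median day 1 difference was 1.85 after quantile normalization and 2.03 to 2.47 without 1 sample. The counts of called loci below have the number called over all 30385 loci in brackets. The count called higher at day 1, which the rule fixes, was 41 (656), and 36 to 39 (477 to 515) without 1 sample. When the dimmest 25% of all loci were dropped it was 10 of the 13 left (361 of all loci left). The count called between day 7 and day 4 was 8 (10629), and 28 (26988) with values as deposited. It was 3 (5679) with array weights, 13 (16395) with 32 arrays in place of samples and 5 to 13 (7760 to 15875) without 1 sample. Without the dimmest loci it was 4 of 13 (9224 of all loci left). The count between day 10 and day 7 was 0 (3169), and 23 (23006) with values as deposited, all 23 lower at day 10. It was 4 (4441) with cyclic loess, 3 (6468) with array weights and 3 (9371) with 32 arrays. It was 1 (3979 of all loci left) without the dimmest loci and 0 (919 to 1727) without any 1 sample of these ages. Without the dimmest loci only 13 of the chosen loci were tested, and the count between day 10 and day 7 was higher there, 1 against 0. The cause of these changes in the counts was not tested. With the pair number as a replicate block the counts were 40 (627) at day 1, 8 (10392) and 0 (2826). Same-numbered pairs of sahh1 and wild type deviated together at day 7 (correlation 0.75) and day 4 (0.19) but not at day 1 (-0.48) or day 10 (-0.17), so the numbers were not taken to pair the samples. With the day 1 pairs crossed, an alternative added after seeing the data, 40 (645) were called. The other alternatives kept each count within 1.5 times. Signal close to background limits every wild-type level among the dimmest 25%.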

Other observations

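Near the start of the excluded run of chromosome 4, 9 loci from AT4G03530 to AT4G03950 met the day 1 conditions, 4 of them among the 43. The first sahh1 sample of day 1 was higher than the second at 5 of the 9, by 2.005 at AT4G03745, 0.57 at AT4G03775, 0.39 at AT4G03880, 0.19 at AT4G03950 and 0.14 at AT4G03910 on the log2 scale. These loci were singled out after their values were seen.

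Of the 1027 pseudogenes outside the excluded runs 141 (13.7%) met the day 1 conditions and 37 (3.60%) are among the 43. The 4 loci outside the runs that were under 0.5 at days 1 and 4 and at least 1.5 at days 7 and 10 with separated arrays had a median wild-type percentile of 12.2 at day 1, against 17.5 for the 43.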
